A study of Mus musculus with 7 samples.

Results

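The 42 genes described here are transcripts by which dendritic cells, macrophages and monocytes are commonly recognised. They were chosen by name and not by their values in this series, and each was read through the probe set that carries its symbol alone. All 42 were measured, each by 1 probe set, among 19937 genes in all. By role they were 8 genes of conventional dendritic cells, 4 of plasmacytoid dendritic cells, 18 of macrophages and monocytes, and 12 that myeloid cells share with one another or with other leukocytes.

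The samples were medullary thymic epithelial cells with high surface MHC class II, sorted from NOD mice, the strain that develops autoimmune diabetes. The reconSCID group (3 arrays) came from NOD mice with the SCID mutation, which in mice impairs the DNA repair kinase Prkdc, and the reconRAG1KO group (4 arrays), named as the control by the series, came from NOD mice null for RAG1. All hosts of both groups were irradiated with 200 rad, received bone marrow into the peritoneum 6 h later as pups of 2 to 4 days, and were analysed after 6 to 8 weeks. Neither host can complete V(D)J recombination, so neither makes normal numbers of its own mature T and B cells, but both keep myeloid cells of their own. Host and donor myeloid transcripts cannot be told apart on these arrays, and neither the donor strain nor the sort's other surface markers were given in the sources used here. The titles number biological replicates but do not give the thymi or mice behind each one, so the p-values measure the spread between these arrays.

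Dendritic cells and macrophages are not epithelial, but they express MHC class II and lie among medullary epithelial cells. In the thymic medulla, conventional dendritic cells take up and present self antigens made by epithelial cells, and plasmacytoid dendritic cells carry antigen in from the blood. Thymic macrophages clear the many thymocytes that die during selection, using phosphatidylserine receptors, complement C1q and scavenger receptors. In sorted bulk cells, fewer cells of a type and less RNA per cell cannot be told apart.

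Of the 7 arrays, reconSCID replicate 2 and reconRAG1KO replicate 4 stood apart from the other 5 by correlation of log2 intensities. The correlation was 0.972 within that pair, 0.922 to 0.947 between the pair and the other 5, and 0.976 to 0.99 within the 5. The labels do not name a batch that would account for the pair. Each set holds both groups. Medians of all members and of each role group are given over the 7 arrays, as a fit blocked on array set, and set by set. Many single genes and marker lists are given in only some of these ways. Median intensities lay between 88.6 and 96.3 on the 7 arrays. Epithelial markers were present on every array: the 10 listed (Epcam, keratins, claudins, Aire, Fezf2 and others) were above the array's median on all 7 arrays, with summed intensities of 5459 to 18713 in reconSCID and 10238 to 21240 in reconRAG1KO.

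Printed here as examples are the promoters of 3 of the 5 members whose reconSCID arrays lay above the reconRAG1KO arrays in both array sets. Each is the RefSeq window of GRCm38.p6, 250 bases before to 50 after the gene's start, read 5′ to 3′ on the gene's strand. Capitals mark GAGGAA, the core of sites bound by PU.1 (the product of the member Spi1) and other ETS factors. Ccr2 lies at chr9:124101933-124102232 (plus strand), Xcr1 at chr9:123861980-123862279 (minus strand) and Ptprc at chr1:138175256-138175555 (minus strand).
Ccr2: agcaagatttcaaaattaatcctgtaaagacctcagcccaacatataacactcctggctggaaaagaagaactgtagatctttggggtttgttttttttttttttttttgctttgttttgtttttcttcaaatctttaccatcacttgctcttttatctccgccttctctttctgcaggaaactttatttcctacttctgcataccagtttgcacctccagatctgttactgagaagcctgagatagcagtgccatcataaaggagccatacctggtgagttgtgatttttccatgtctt
Xcr1: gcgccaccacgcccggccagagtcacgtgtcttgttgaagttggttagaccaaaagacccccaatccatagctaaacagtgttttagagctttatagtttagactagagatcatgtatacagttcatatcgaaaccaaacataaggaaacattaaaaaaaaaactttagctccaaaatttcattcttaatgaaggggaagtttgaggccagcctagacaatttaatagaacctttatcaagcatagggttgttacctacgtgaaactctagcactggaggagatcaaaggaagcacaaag
Ptprc: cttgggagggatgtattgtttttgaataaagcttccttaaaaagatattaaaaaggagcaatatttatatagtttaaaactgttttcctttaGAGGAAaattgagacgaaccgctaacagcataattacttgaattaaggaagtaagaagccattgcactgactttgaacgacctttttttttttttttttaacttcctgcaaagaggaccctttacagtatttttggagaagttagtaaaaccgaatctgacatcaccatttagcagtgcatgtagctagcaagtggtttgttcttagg
The printed Ptprc window holds 1 GAGGAA, and the Ccr2 and Xcr1 windows hold none on either strand. A second RefSeq window of Ptprc, the 1 window of Cx3cr1 and the 2 of Coro1a, the other members with this pattern, hold none either.

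RefSeq promoters were found for 31 of the 42 members, which have 34 windows of 300 bases. GAGGAA, searched on both strands, was in 14 of the 34 (41.2%), against 28.3% of 32851 promoters of all genes. The longer GAGGAAGT, which contains GAGGAA, was in 2 of the 34 (5.88%, C1qc and Tlr9), against 3.2% of all promoters. These are matches of letters in a window and were not tested as binding sites.

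No member passed the test between the groups. Fitted with limma over 34760 probe sets, 0 members and 0 probe sets (0%) had a Benjamini-Hochberg adjusted p under 0.05. At an unadjusted p under 0.05, 1 member (Ccr2) was higher in reconSCID, against a background of 2.2% of probe sets, and 0 members were lower. The median difference of the 42 members, reconSCID minus reconRAG1KO, was 0.09 on the log2 scale, with 29 above 0 and 13 below, beside a median of -0.007 over all genes, of which 47.5% were above 0. Over the 7 arrays the groups did not overlap in 0 of 42 members, against 2.77% of all genes in either direction.

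The level of the members differed most between arrays within the groups. The mean log2 intensity of the 42 genes was 9.06, 7.84 and 9.45 on reconSCID replicates 1 to 3, against 8.90, 8.85, 8.67 and 8.17 on reconRAG1KO replicates 1 to 4. The reconSCID group thus holds the highest and the lowest of the 7 arrays. Replicate 3 of reconSCID was the highest array for 35 of 42 members (83.3%, against 15.4% of all genes), and replicate 2 of reconSCID was the lowest for 27 (64.3%, against 17.6%).

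**Figure D1:**
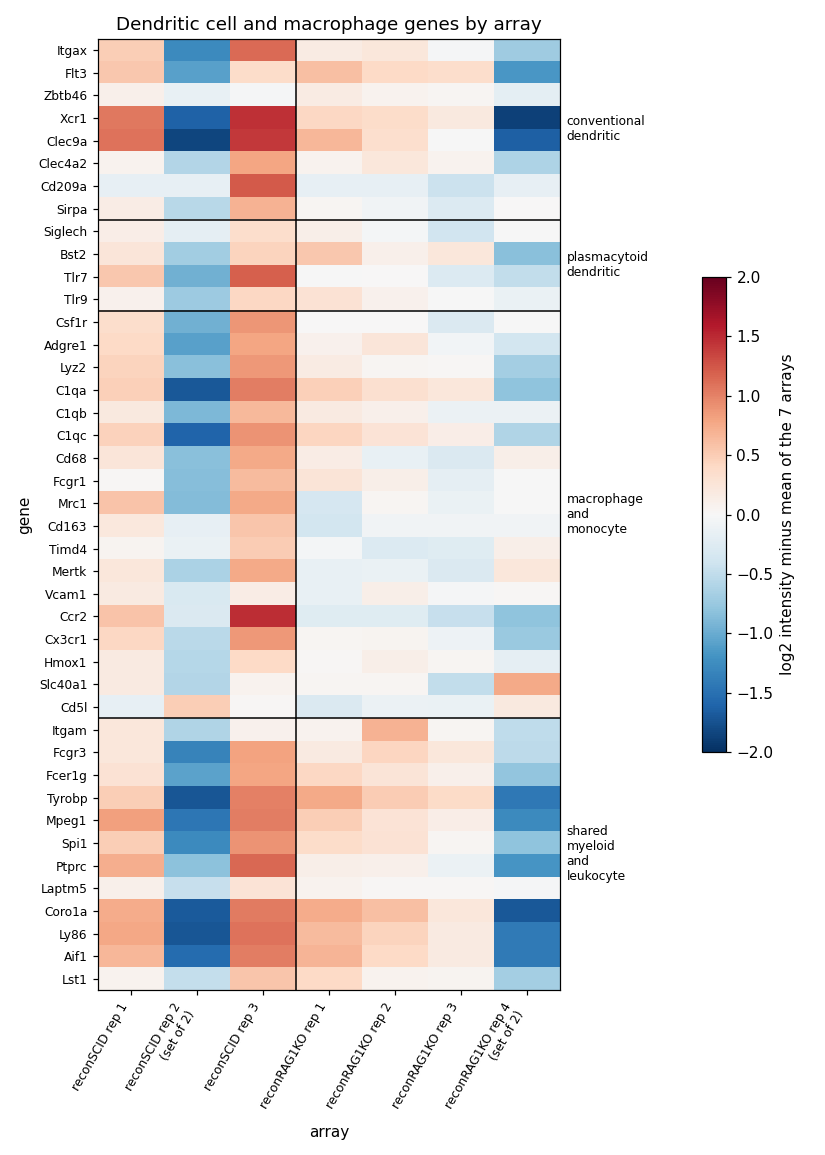
Log2 intensity of each of the 42 genes (rows, ordered by role) on each of the 7 arrays (columns), minus that gene's mean over the 7 arrays; red is above the mean and blue below. Replicate 3 of reconSCID is highest for 35 genes and replicate 2 of reconSCID lowest for 27.

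The 2 arrays that stood apart held lower levels of these genes. Their mean was below the mean of the 5 others in 40 of 42 members (95.2%, against 36.1% of all genes), with a median difference of -0.82 on the log2 scale (0.117 over all genes). All 12 shared myeloid and leukocyte genes lay lower on both of these arrays than on every one of the 5, and so did 6 of the 8 conventional dendritic, 3 of the 4 plasmacytoid and 7 of the 18 macrophage genes. In all, 28 of 42 members (66.7%) lay lower in this way, against 20.1% of all genes. Ribosomal protein genes were also lower by their mean in the set of 2, in 53 of 55 (median -1.437). Of these 55, 90.9% lay lower on both arrays than on every one of the 5. Neutrophil (10 of 10, median -1.295), T cell (8 of 9, -0.928) and B cell markers (8 of 9, -0.51) were lower there too. Epithelial markers were higher in the set of 2, in 10 of 10 (median 0.967). The endothelial and fibroblast markers had a median of 1.064. The part of these shifts in the group comparison was not tested beyond the fits by array set given next.

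The observed group difference was unlike in the 2 array sets. In the 5 arrays of the larger set, reconSCID was higher in 40 of 42 members, with a median difference of 0.42 on the log2 scale (-0.011 over all genes, 46.1% of them above 0). In 28 of 42 members both reconSCID arrays lay above all 3 reconRAG1KO arrays of that set, against 13.7% of all genes. These 28 were 16 of 18 macrophage, 6 of 12 shared, 4 of 8 conventional dendritic and 2 of 4 plasmacytoid genes. Some of them were near ties between reconSCID replicate 1 and reconRAG1KO replicate 1: C1qa (11.232 and 11.228), C1qb (10.848 and 10.839) and Siglech (6.699 and 6.682). The fit of these 5 arrays called 0 members and 0% of probe sets after adjustment, and 18 members were higher at an unadjusted p under 0.05, against 8.87% of probe sets.

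In the set of 2 the reconSCID array was lower in 30 of 42 members (71.4%, against 51.8% of all genes), higher in 11 and equal in 1, Cd209a. The median difference was -0.278 on the log2 scale, with 1 array a group and no test of that pair alone. Blocked on array set, 34 members were above 0 and 8 below, with a median of 0.19, and 0 members and 0% of probe sets passed after adjustment. At an unadjusted p under 0.05 the block fit held 4 members, all higher (Ptprc, Xcr1, Ccr2 and Cx3cr1), against 6.53% of probe sets.

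The difference between the array sets was tested with an interaction term, in which the lone arrays of the set of 2 are assumed to vary like the others. It called 0 members and 0% of probe sets after adjustment. At an unadjusted p under 0.05, 20 of 42 members had a lower difference in the set of 2, against 11.5% of probe sets, and the median of the members was -0.73 (0 over all genes). Mrc1, the mannose receptor of tissue macrophages, had the smallest p (-1.67 ± 0.24, SE, limma adjusted p = 0.106). Its log2 intensities were 8.69, 7.24 and 8.87 in reconSCID, against 7.78, 8.14, 7.98 and 8.10 in reconRAG1KO. The reconSCID values of Mrc1 thus lay on both sides of all 4 reconRAG1KO values.

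**Figure D2:**
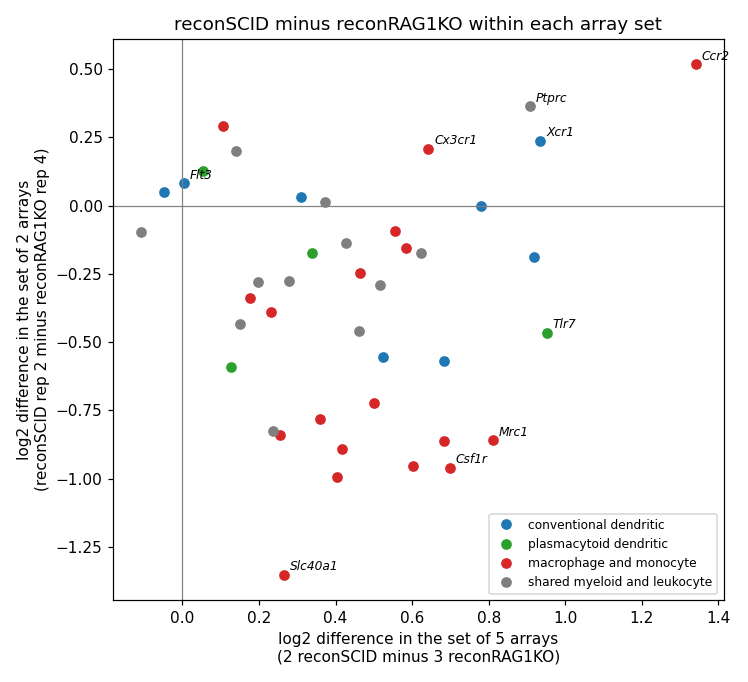
Log2 difference (reconSCID minus reconRAG1KO) of each of the 42 genes in the set of 5 arrays (x axis) and in the set of 2 arrays (y axis), coloured by role. Points lie to the right of 0 for 40 genes and below 0 for 30.

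Among the 8 conventional dendritic genes the median difference was 0.185 over 7 arrays, 0.272 with the block, 0.604 in the set of 5 and 0.017 in the set of 2. Xcr1, the receptor for the chemokine XCL1 on cross-presenting dendritic cells, had log2 intensities of 9.42, 6.75 and 9.83 in reconSCID, against 8.78, 8.73, 8.57 and 6.51 in reconRAG1KO. Its reconSCID arrays were higher within each set, by 0.93 in the 5 arrays and 0.24 in the 2, while over all 7 arrays the groups overlapped. The Xcr1 difference was 0.52 over 7 arrays (95% interval -1.61 to 2.65, limma adjusted p = 1) and 0.73 with the block (0.30 to 1.16, adjusted p = 0.266). Without reconSCID replicate 3 it was -0.064 over the remaining arrays and 0.531 with the block.

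Cd209a, a C-type lectin of the DC-SIGN family, was 6.44, 6.44 and 7.81 in reconSCID, against 6.44, 6.44, 6.16 and 6.44 in reconRAG1KO. Only 3 distinct values of Cd209a were deposited for 7 arrays, and its difference of 0.53 (-0.29 to 1.35, adjusted p = 1) rests on reconSCID replicate 3. Without that replicate it was 0.069. Sirpa, the inhibitory receptor for CD47 on conventional dendritic cells and macrophages, was 10.58, 9.88 and 11.13 in reconSCID, against 10.47, 10.36, 10.16 and 10.44 in reconRAG1KO, a difference of 0.17 (-0.49 to 0.83, adjusted p = 1). Its 2 reconSCID arrays of the larger set lay above all 4 reconRAG1KO arrays, and replicate 2 lay below them.

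Clec9a, the receptor of the same Xcr1-bearing dendritic cells for dead cells, resembled Xcr1 within the set of 5 (0.92) but was lower in reconSCID in the set of 2 (-0.19). Itgax, which encodes CD11c, differed by 0.68 in the set of 5 and -0.57 in the set of 2. Flt3, the receptor that drives dendritic cell development, and Zbtb46, a transcription factor of conventional dendritic cells, differed by 0.003 and -0.048 in the set of 5. Clec4a2, an inhibitory lectin, differed by 0.31 there. The conventional dendritic genes thus did not share 1 pattern: Flt3 and Zbtb46 overlapped between the groups in the larger set, and Xcr1, Clec9a, Itgax and Sirpa did not.

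Among the 4 plasmacytoid genes the median difference was 0.081 over 7 arrays, 0.131 with the block, 0.233 in the set of 5 and -0.319 in the set of 2. Siglech, a lectin of plasmacytoid cells, was 6.70, 6.39 and 6.91 in reconSCID, against 6.68, 6.53, 6.19 and 6.57 in reconRAG1KO, a difference of 0.18 (-0.23 to 0.58, adjusted p = 1). Tlr7, the sensor of single-stranded RNA, was 7.23, 5.74 and 7.89 in reconSCID, against 6.70, 6.71, 6.43 and 6.21 in reconRAG1KO, a difference of 0.44 (-0.70 to 1.59, adjusted p = 1). For both genes the larger set separated the groups and reconSCID replicate 2 lay below its reconRAG1KO partner of the set of 2.

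Tlr9, the sensor of CpG DNA, was 8.62, 7.80 and 8.94 in reconSCID, against 8.81, 8.62, 8.53 and 8.40 in reconRAG1KO, a difference of -0.13 (-0.77 to 0.51, adjusted p = 1). Bst2, the interferon-inducible protein tetherin, was 10.35, 9.41 and 10.55 in reconSCID, against 10.66, 10.21, 10.33 and 9.28 in reconRAG1KO, a difference of -0.01 (-0.96 to 0.93, adjusted p = 1). The groups overlapped for Tlr9 and Bst2 also within the set of 5.

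**Figure D3:**
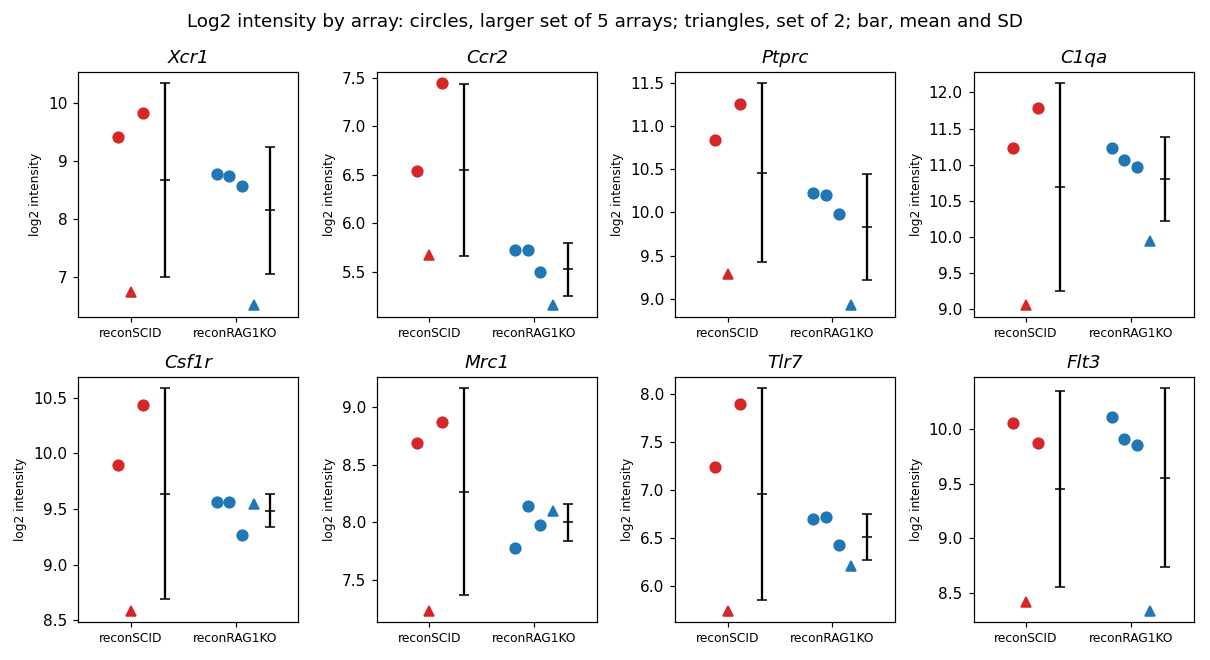
Log2 intensity of 8 of the 42 genes on each array, reconSCID left of reconRAG1KO, with circles for the larger set of 5 arrays, triangles for the set of 2, and bars for the mean and SD over each group's 3 or 4 arrays. The reconSCID triangle lies above the reconRAG1KO triangle for Xcr1, Ccr2, Ptprc and Flt3, and below it for C1qa, Csf1r, Mrc1 and Tlr7.

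Among the 18 macrophage and monocyte genes the median difference was 0.126 over 7 arrays, 0.152 with the block, 0.482 in the set of 5 and -0.751 in the set of 2. In the set of 5 all 18 were above 0, against 46.1% of all genes. There 11 were higher at an unadjusted p under 0.05 (limma), against 8.87% of probe sets. In the set of 2, 15 of the 18 were below 0, against 51.8% of all genes. Ccr2, the chemokine receptor that lets monocytes leave the marrow, was 6.54, 5.67 and 7.44 in reconSCID, against 5.73, 5.73, 5.50 and 5.16 in reconRAG1KO. Its reconSCID replicates 1 and 3 lay above all reconRAG1KO arrays, and replicate 2 lay above its partner of the set of 2 but below reconRAG1KO replicates 1 and 2. Ccr2 was above the array's median intensity only on reconSCID replicates 1 and 3, and below it on the other arrays.

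The Ccr2 difference was 1.02 (95% interval 0.075 to 1.97, limma adjusted p = 1) over 7 arrays and 1.10 with the block (0.44 to 1.75, adjusted p = 0.269). It was 0.579 without reconSCID replicate 3, and 0.74 with the block and without that replicate. Cx3cr1, the fractalkine receptor of monocytes and resident macrophages, was 8.78, 7.83 and 9.23 in reconSCID, against 8.40, 8.42, 8.27 and 7.62 in reconRAG1KO. Like Ccr2 it was higher in reconSCID within each set, by 0.64 and 0.21, and by 0.51 with the block (0.16 to 0.87, adjusted p = 0.298).

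Lyz2, the lysozyme of myeloid cells, was 12.81, 11.52 and 13.23 in reconSCID, against 12.53, 12.40, 12.38 and 11.68 in reconRAG1KO, a difference of 0.27 (-0.73 to 1.28, adjusted p = 1). The Lyz2 difference was 0.58 in the set of 5, -0.16 in the set of 2 and 0.37 with the block. Cd163, the haemoglobin-haptoglobin scavenger receptor, was 5.92, 5.53 and 6.25 in reconSCID, against 5.33, 5.62, 5.62 and 5.62 in reconRAG1KO, a difference of 0.35 (-0.08 to 0.78, adjusted p = 1). Cd163 was below the array's median intensity on all 7 arrays, as was Cd5l, a secreted scavenger-receptor protein of macrophages. Timd4, a phosphatidylserine receptor for apoptotic cells, was 6.96, 6.78 and 7.42 in reconSCID, against 6.86, 6.64, 6.67 and 7.03 in reconRAG1KO, a difference of 0.25 (-0.18 to 0.68, adjusted p = 1).

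The 3 C1q chains, which start the classical complement pathway, were close together. C1qa, C1qb and C1qc differed by 0.42, 0.36 and 0.40 in the set of 5, and by -0.89, -0.78 and -0.99 in the set of 2. Csf1r, the receptor for CSF1 and IL-34, differed by 0.70 and -0.96 in these sets. Mertk, the kinase that takes up apoptotic cells through GAS6 and protein S, differed by 0.68 and -0.86, and Cd68, a lysosomal protein, by 0.60 and -0.95. These opposite differences left values near 0 over the 7 arrays, between -0.14 and 0.20 for the C1q chains, Csf1r, Mertk and Cd68.

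The next 6 macrophage genes differed by 0.11 to 0.50 in the larger set. Hmox1, which breaks down haem, differed by 0.23 in the set of 5 and -0.39 in the set of 2, and the iron exporter Slc40a1 by 0.26 and -1.35. The F4/80 gene Adgre1, the high-affinity IgG receptor Fcgr1 and the adhesion molecule Vcam1, which epithelial and endothelial cells can also express, differed by 0.50, 0.26 and 0.18 in the set of 5. Cd5l differed by 0.11 there and was higher in reconSCID in the set of 2 as well (0.29), with overlapping groups in the larger set.

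Among the 12 shared genes the median difference was 0.068 over 7 arrays, 0.173 with the block, 0.326 in the set of 5 and -0.225 in the set of 2. Ptprc, which encodes CD45 of all leukocytes, was 10.83, 9.29 and 11.26 in reconSCID, against 10.22, 10.20, 9.98 and 8.93 in reconRAG1KO. Its reconSCID arrays were higher within each set, by 0.91 and 0.36. The Ptprc difference was 0.63 (-0.65 to 1.90, limma adjusted p = 1) over 7 arrays and 0.75 with the block (0.35 to 1.14, adjusted p = 0.254). Without reconSCID replicate 3 it was 0.226 over the remaining arrays and 0.562 with the block.

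Fcgr3, a low-affinity IgG receptor, was 7.83, 6.26 and 8.41 in reconSCID, against 7.78, 8.04, 7.83 and 7.08 in reconRAG1KO, a difference of -0.18 (-1.40 to 1.03, adjusted p = 1). Itgam, which encodes CD11b of macrophages and neutrophils, was 7.16, 6.32 and 7.01 in reconSCID, against 6.995, 7.61, 6.96 and 6.42 in reconRAG1KO, a difference of -0.17 (-0.92 to 0.59, adjusted p = 1). Laptm5, a lysosomal membrane protein of blood cells, was 12.04, 11.49 and 12.22 in reconSCID, against 12.01, 11.97, 11.96 and 11.92 in reconRAG1KO, a difference of -0.05 (-0.46 to 0.36, adjusted p = 1). Laptm5 thus had 4 nearly equal reconRAG1KO arrays with reconSCID replicate 2 below them and the other reconSCID arrays above.

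The other shared genes lay between 0.14 and 0.62 in the set of 5. Mpeg1, which encodes the pore-forming protein perforin-2, differed by 0.62, the transcription factor gene Spi1 by 0.46, the TLR-like co-receptor gene Ly86 by 0.52 and the macrophage marker Aif1 by 0.43. Coro1a, an actin-binding protein of leukocytes, differed by 0.37 and was close to 0 in the set of 2 (0.014). The adaptors Tyrobp and Fcer1g differed by 0.20 and 0.28, and Lst1 by 0.14. Replicate 3 of reconSCID was the highest array for 11 of the 12 shared genes (15.4% of all genes), and replicate 2 of reconSCID was the lowest for 9 (17.6% of all genes).

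**Figure D4:**
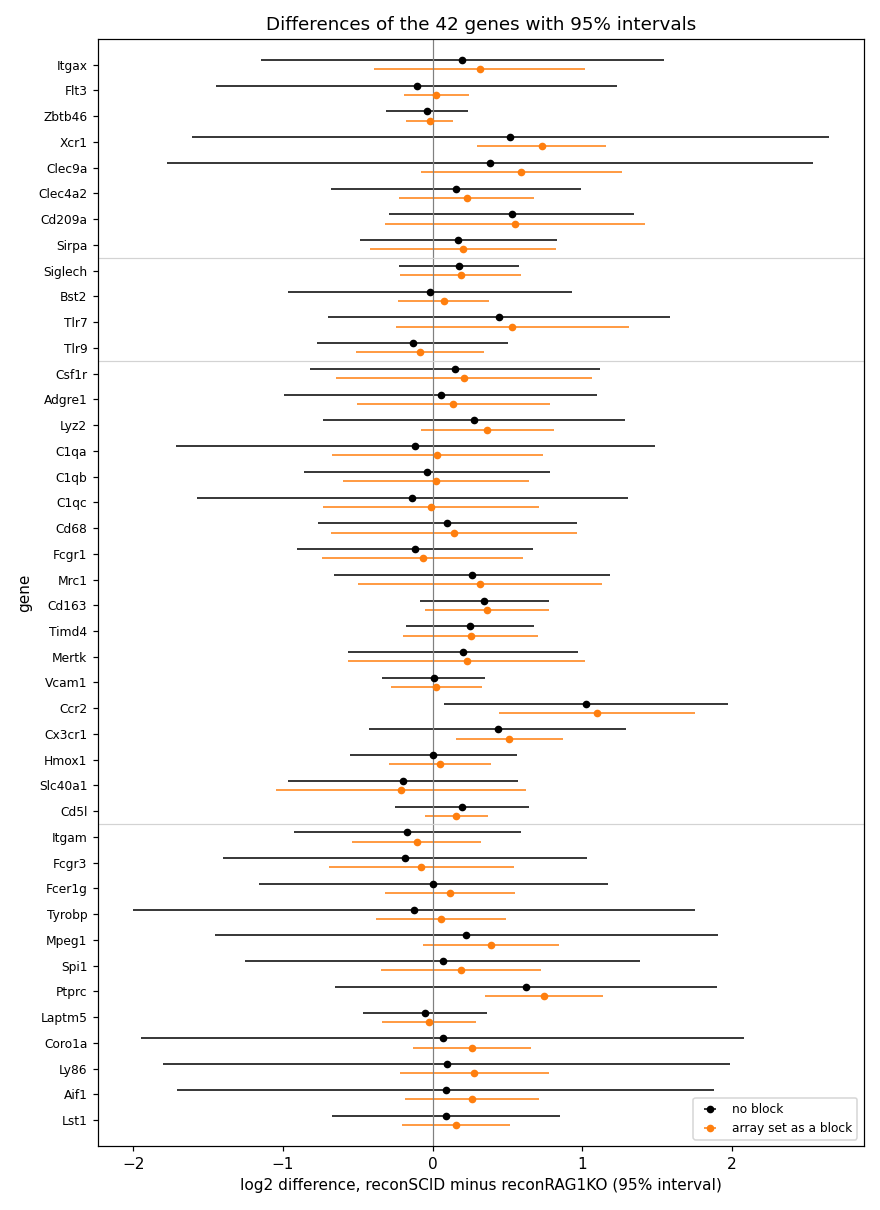
Log2 difference (reconSCID minus reconRAG1KO) of each of the 42 genes with its 95% interval over the 7 arrays and, in the other colour, from the fit blocked on array set. The interval of Ccr2 is the only one over the 7 arrays that lies wholly above 0; with the block those of Ptprc, Xcr1, Ccr2 and Cx3cr1 do.

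Counting members for which the 2 reconSCID arrays of the larger set lay above its 3 reconRAG1KO arrays, and the reconSCID array of the set of 2 above its partner, gave 5 of 42: Xcr1, Ccr2, Cx3cr1, Ptprc and Coro1a. The same pattern held for 6.98% of all genes. Coro1a met it narrowly, with 10.556 on reconSCID replicate 1 against 10.553 on reconRAG1KO replicate 1. In the set of 2 it was 8.132 in reconSCID against 8.118 in reconRAG1KO. Leaving out 1 array moved the members' median over 7 arrays widely. It was 0.565 without reconSCID replicate 2 (42 of 42 above 0), -0.215 without reconSCID replicate 3 (8 above 0), -0.082 without reconSCID replicate 1 and -0.059 without reconRAG1KO replicate 4. Without reconSCID replicate 3 the median was 0.233 in the set of 5 (34 above 0) and 0.006 with the block (21 above 0).

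Other listed genes of these cells did not pass the test either: 0 of 19 conventional dendritic, 0 of 10 plasmacytoid, 0 of 19 macrophage and 0 of 21 shared genes that were measured. Their median differences over 7 arrays were 0.011, 0.019, 0.069 and 0.054. With the block these medians were 0.161, 0.062, 0.07 and 0.172, and in the set of 5 they were 0.224, 0.129, 0.178 and 0.283. Tlr3, the sensor of double-stranded RNA in Xcr1-bearing dendritic cells, was 7.10, 6.62 and 7.34 in reconSCID, against 6.26, 6.53, 6.38 and 6.28 in reconRAG1KO, without overlap. Over the 7 arrays 2.77% of all genes kept the groups apart, in either direction. Tlr3 was above the array's median intensity on 4 of the 7 arrays. Its difference was 0.66 (0.23 to 1.08, limma adjusted p = 1), and 0.69 with the block (adjusted p = 0.247). Cadm1, an adhesion molecule of the same cells, differed by 0.26 with the block, and Batf3 and Irf8, their transcription factors, by -0.13 and -0.10. With the block 13 of the 19 conventional dendritic genes were above 0, against 45.7% of all genes. Batf3 and Irf8 were among the 6 below 0.

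Of the other genes listed as plasmacytoid, the 2 with the smallest unadjusted p were the transcription factors Tcf4 and Spib. They differed by 0.28 and -0.16 over 7 arrays. Both were higher by their mean in the set of 2, by 0.255 and 0.448, as the epithelial markers were. Apoe, the lipid carrier of macrophages, was 12.24, 12.30 and 12.44 in reconSCID, against 11.88, 11.92, 11.96 and 12.30 in reconRAG1KO, a difference of 0.31 (0.002 to 0.62, limma adjusted p = 1). The Apoe difference was 0.42 in the set of 5 and -0.005 in the set of 2. Trem2, a lipid receptor of macrophages, differed by 0.14. Of the shared genes, Fgr, a Src-family kinase, differed by 0.38 and Ncf1, a subunit of the phagocyte oxidase, by -0.23. None of these genes except Tlr3 kept the groups apart over the 7 arrays.

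The 10 ligands of the members' receptors were measured too, and 0 passed. Gas6, a ligand of Mertk, was 7.71, 9.45 and 7.44 in reconSCID, against 8.03, 8.13, 8.38 and 9.93 in reconRAG1KO, and lower in reconSCID by 0.60 in the set of 5 and 0.48 in the set of 2. Its difference was -0.415 over 7 arrays and -0.566 with the block (limma adjusted p = 0.247). Csf1, Csf2, Xcl1, Cx3cl1 and Cd47 differed by -0.18, -0.17, -0.11, -0.05 and -0.05 over 7 arrays. Flt3l, Il34, Ccl2 and Pros1 differed by 0.13, 0.14, 0.19 and 0.18. The ligands of the 3 chemokine receptors that were higher in reconSCID within each array set did not share 1 pattern. Ccl2, the ligand of Ccr2, was higher in reconSCID by 0.249 in the set of 5 and 0.066 in the set of 2. Xcl1 and Cx3cl1, the ligands of Xcr1 and Cx3cr1, differed by -0.25 and -0.21 in the set of 5 and by 0.20 and 0.15 in the set of 2.

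Markers of other cell types also differed in level between arrays, and 0 of those listed passed the test. All 9 measured B cell markers were higher in reconSCID over the 7 arrays (median 0.993), and their summed intensity was 1974, 1057 and 4069 in reconSCID, against 1183, 1080, 934 and 939 in reconRAG1KO. Their median difference was 1.333 in the set of 5 and 0.247 in the set of 2, beside 0.422 and -0.278 for the 42 members. Cd79a, a signalling chain of the B cell receptor, was 9.25, 7.36 and 10.40 in reconSCID, against 8.10, 8.02, 7.29 and 7.18 in reconRAG1KO. All 10 epithelial markers were lower in reconSCID (median -0.54), with sums of 8673, 18713 and 5459 in reconSCID, against 10238, 11567, 14084 and 21240 in reconRAG1KO. The epithelial median was -0.766 in the set of 5 and -0.324 in the set of 2. Replicate 3 of reconSCID thus had the highest summed B cell markers, the highest summed members and the lowest summed epithelial markers of the 7 arrays. The same array had the highest summed T cell markers, given below.

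Ptprc is a gene of all leukocytes, B and T cells included. Neutrophils also express Itgam and Fcgr3. Their markers were lower in reconSCID in 9 of 10, with sums of 1675, 702 and 1268 in reconSCID, against 2950, 8929, 4897 and 880 in reconRAG1KO. The 9 measured T cell markers had sums of 1407 to 4003 in reconSCID and 1749 to 3282 in reconRAG1KO, with a median difference of -0.015. The 10 endothelial and fibroblast markers had sums of 1490 to 6046 in reconSCID and 1387 to 3636 in reconRAG1KO. No marker was at 0, since the deposited intensities are all positive. The part of these other cell types in the members' differences was not tested.

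**Figure D5:**
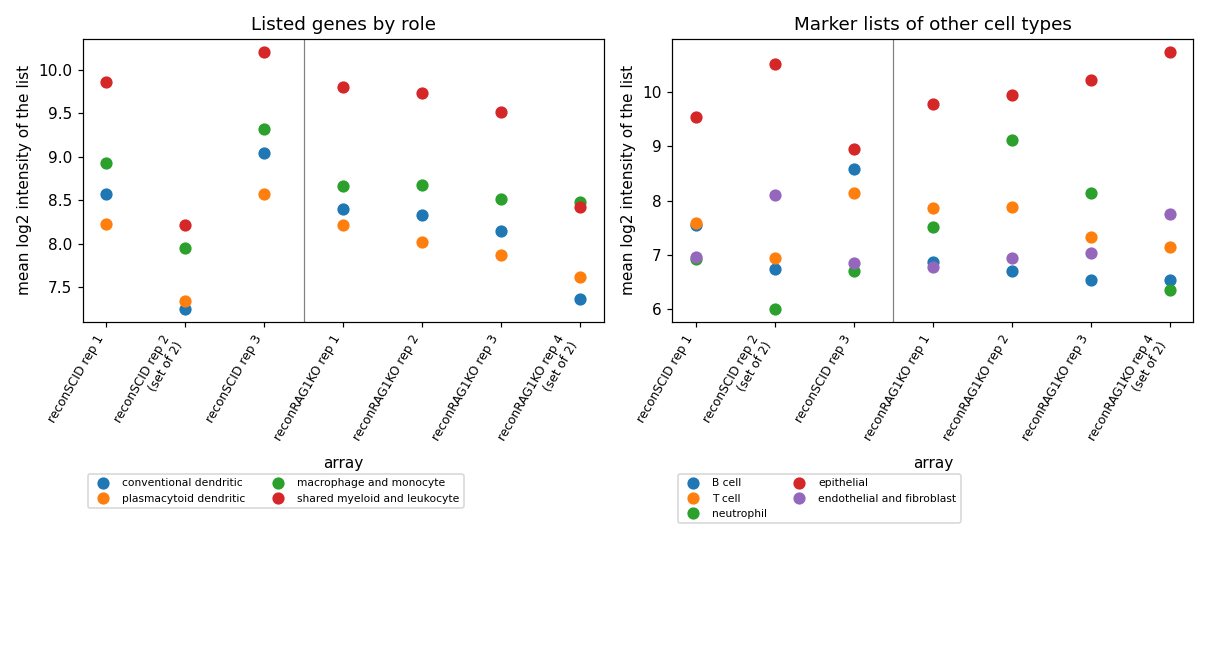
Mean log2 intensity of each role group of the 42 genes (left) and of the marker lists of other cell types (right) on each of the 7 arrays, reconSCID left of reconRAG1KO. Replicate 3 of reconSCID has the highest mean of every role group, of the B cell markers and of the T cell markers, and the lowest mean of the epithelial markers.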

How the data were processed

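Per the labels, total RNA (6 µg) of each sorted sample was labelled as biotinylated cRNA for Affymetrix arrays. The deposited unit is a linear intensity for each probe set. How the authors summarised or scaled it was not given in the sources used here, and the array medians were close. Log2 was taken with no pseudocount. Of 34760 probe sets, 21640 had 1 gene symbol, 1321 several, and 11799 were unnamed in the annotation used here. Of those with 1 symbol, 21553 matched RefSeq (GRCm38.p6) and 0 symbols were updated. A gene was read by its probe set with 1 symbol and the highest mean. Ties were common: 16049 probe sets, and 7 of the 42 members, held the same value on 2 or more arrays. The number of arrays limits the precision.

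All probe sets were fitted with lmFit and eBayes of limma 3.58.1 (R 4.3.3), by two-sided tests, adjusted over all of them by the Benjamini-Hochberg method at a threshold of 0.05, as reconSCID minus reconRAG1KO. The fit was tested on simulated data. The members, lists and settings were chosen with earlier results of these data known, among them the 2 arrays that stand apart. Given by array are, in each role group, the 3 members with the smallest unadjusted p, the one with the highest mean and any whose groups do not overlap. Of each list of other genes, the 2 with the smallest unadjusted p and all ligands are named, most by their difference only. Cx3cr1, Mrc1, Gas6, Batf3 and Irf8, and the members given by difference only, were added after their values were seen. Some of the other genes and markers listed are not reported here.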

Additional observations from a re-analysis of the deposited data

Results flagged for a closer look

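In 5 of the 42 members 1 of the 4 reconRAG1KO arrays lay far from the other 3, by the gap to its nearest neighbour as a share of the group's range (Dixon's ratio, 95% critical value, which chance passes in about 5% of groups). The ratio was 0.854 for Flt3 and 0.909 for Xcr1, in both of which replicate 4 was low. It was 0.943 for Csf1r, where replicate 3 was low. It was 1 for Cd209a, where replicate 3 was low, and 1 for Cd163, where replicate 1 was low; for both genes the other 3 arrays held identical deposited values. The group of 3 reconSCID arrays was not examined in this way.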

How the results depend on the processing

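0 members passed the adjusted threshold under any of the alternatives run: quantile or median scaling, a filter on low values, log2(value + 16), array weights, a trended robust variance, the mean of a gene's probe sets, the array set as a block, the set of 5 alone, the replicate block, and each array left out. Array weights, which gave reconSCID replicate 2 a weight of 0.12, called 57 probe sets. An unadjusted threshold called 1159 probe sets and 1 member. The median of the macrophage genes was -0.751 within the set of 2. Several small differences crossed 0. In the fit blocked on array set without reconSCID replicate 3 (added after seeing the data), Sirpa was -0.071 and Bst2 0.023. Bst2 was 0.002 with quantile scaling, 0.075 when blocked on array set and 0.053 in the set of 5. In the set of 5, Tlr9 was 0.128, Fcgr3 0.237 and Laptm5 0.149 (0.061 with reconSCID replicate 3 also left out, added after seeing the data); with array weights, Fcgr3 was 0.005 and Laptm5 0.075. The cause of these shifts was not tested.

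Leaving out each array in turn gave medians of -0.16 to 0.627 for the conventional dendritic, -0.131 to 0.323 for the plasmacytoid, -0.157 to 0.565 for the macrophage and -0.375 to 0.706 for the shared genes. Single genes ranged from -0.064 to 1.48 (Xcr1), -0.125 to 0.497 (Sirpa), -0.024 to 1.05 (Tlr7), -0.377 to 0.192 (Tlr9), -0.294 to 0.332 (Bst2), -0.081 to 0.773 (Lyz2), -0.361 to 0.085 (Itgam), -0.637 to 0.436 (Fcgr3) and -0.201 to 0.163 (Laptm5). Ccr2 stayed above 0, at 0.579 to 1.47. So did Ptprc (0.226 to 1.21), Cd163 (0.172 to 0.531), Cd209a (0.069 to 0.757), Timd4 (0.069 to 0.388) and Siglech (0.054 to 0.313). The filter on low values kept 38 of the 42 members, and Ccr2 and Cd163 were not among those kept.

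Same-numbered arrays did not all deviate together (correlations of 0.472, -0.508 and 0.314), and 1 of 3 reconSCID arrays correlated best with its own number. Replicate 2 of reconSCID correlated at -0.534, -0.508 and -0.437 with reconRAG1KO replicates 1 to 3, which are all of the other array set. The check therefore cannot tell whether the numbers pair the samples. The replicate block called 0 probe sets and 0 members, and Xcr1 was -0.027 under it.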
